A study of Mus musculus with 57 samples.

Results

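The 9 genes described here are genes of bile duct cells and of fetal or progenitor liver cells, followed through 57 mouse livers: Krt7, Krt19, Krt23, Epcam, Sox9, Spp1, Cd24a, Prom1 and Afp. They were chosen by name, each symbol matched 1 Ensembl ID, and so all 9 members were found among the 54307 genes of the deposited table. The study measured bulk RNA-seq in livers injured by 1 of 7 compounds or given a vehicle, to test and tune the estimation of cell-type shares from whole-tissue expression. The questions here were whether the bile duct toxicants ANIT and MDA lowered these genes, and which compounds raised Sox9, Spp1 or Afp.

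All mice were wild-type males of the strain C57BL/6JJcl, aged 6 weeks before 1 week of acclimatisation, fasted for 12 h before dosing and killed 24 h after it. By gavage, 4 mice received alpha-naphthyl isothiocyanate (ANIT), 7 received 4,4'-methylene dianiline (MDA), 6 received acetaminophen (APAP) and 5 received thioacetamide (TAA). Carbon tetrachloride (CCl4, 7 mice) and galactosamine (GAL, 4 mice) were given intraperitoneally, and the plant lectin concanavalin A (ConA, 7 mice) into the tail vein. There were 17 controls: 13 with 0.5% methylcellulose by gavage, 2 with intraperitoneal saline and 2 with intravenous saline (0.9%). Corn oil is named as another vehicle, no control received it, and for a compound given in corn oil the effects of compound and vehicle cannot be told apart. Only 2 controls stand behind each comparison of CCl4, GAL and ConA with the vehicle of its route, so these compounds were also set against all 17 vehicle livers. As 13 of those 17 were dosed by gavage, that comparison also mixes compound with route and vehicle for CCl4, GAL and ConA.

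Cholangiocytes line the bile ducts and make up a small share of the liver. They carry keratins 7 and 19, the adhesion molecule EpCAM, the transcription factor SOX9 and osteopontin, the secreted glycoprotein encoded by Spp1. After injury, hepatocytes near the portal tracts can switch on some of these genes, and duct-like progenitor cells can expand. Afp, the main plasma protein of the fetal liver, is silenced after birth and can return during regeneration. ANIT and MDA are known as toxicants of the intrahepatic bile ducts, whereas APAP, TAA and CCl4 are turned into reactive products in hepatocytes around the central vein. GAL depletes hepatocytes of uridine nucleotides, and ConA activates T cells. Spp1 is also made by macrophages and Cd24a by neutrophils and red cell precursors, so neither is specific to ducts.

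The 2 upstream sequences are shown because their genes carry the changes described next. Afp rose under 5 compounds, and Krt23 fell with both duct toxicants and, against all 17 vehicle livers, with CCl4. They are the 250 bases before the RefSeq start (build GRCm38.p6), written 5′ to 3′ along the gene. Capitals mark matches, on either strand, to 6 motifs: FOXA TGTTTAC, C/EBP TTGCNNAA, NR5A2 CAAGGTCA, AP-1 TGANTCA, TEAD GGAATG and RBPJ TGGGAA. The RefSeq table held 6 of the 9 members (Krt7, Krt23, Epcam, Spp1, Prom1 and Afp).
Afp, chr5:90490464-90490713, plus strand: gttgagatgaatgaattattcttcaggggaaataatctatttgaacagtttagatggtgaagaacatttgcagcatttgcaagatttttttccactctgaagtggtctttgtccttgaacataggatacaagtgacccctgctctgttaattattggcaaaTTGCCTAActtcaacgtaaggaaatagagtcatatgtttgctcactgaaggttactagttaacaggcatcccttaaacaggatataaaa
Krt23, chr11:99493121-99493370, minus strand: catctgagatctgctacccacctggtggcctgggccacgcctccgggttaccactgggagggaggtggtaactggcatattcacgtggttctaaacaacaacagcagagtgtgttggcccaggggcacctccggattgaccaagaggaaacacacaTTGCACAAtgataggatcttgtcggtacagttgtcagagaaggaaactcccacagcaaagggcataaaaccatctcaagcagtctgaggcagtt

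The Afp window held a C/EBP match at 89 to 82 bases before the start, and the Krt23 window held one at 94 to 87 bases. Spp1 and Prom1 had 2 windows each: 1 of Spp1 held a C/EBP match, and those of Prom1 held 2 AP-1 matches and 1 RBPJ match between them. The windows of Krt7 and Epcam and the other of Spp1 held none of the 6 motifs. In all 32851 windows of this length, 9.56% held the C/EBP motif, 3.17% the FOXA motif, 1.33% the NR5A2 motif, 6.75% the AP-1 motif, 12.6% the TEAD motif and 21.6% the RBPJ motif. A match describes the letters and not a bound site.

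Library totals ranged from 13826343 to 35075809 estimated counts (median 21532116). Mitochondrial genes took 5.11% to 25.4% of them in the vehicle livers and 14.6% to 39.3% in the ConA livers, whose highest value was in mouse 2, and the part of this share in the ConA results was not tested. The deposited values look corrected for transcript length. CPM made from them (counts scaled to a common library total after adjusting totals by TMM factors) are therefore levels per length and can be set side by side between genes. In the gavage vehicle livers Spp1 averaged 41.9 ± 20.1 CPM (SD, n = 13) and Krt19 averaged 2.82 ± 1.29 CPM. Each of the other 7 members averaged between 0.696 CPM (Afp) and 1.56 CPM (Cd24a). None of the 9 was at 0 in any library, although the smallest estimated counts were 0.783 for Krt7, 1.58 for Krt23, 2.00 for Afp and 2.58 for Prom1. Length-corrected values are not numbers of reads. In whole-liver RNA, fewer cells of a type and less RNA per cell cannot be told apart.

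**Figure D1:**
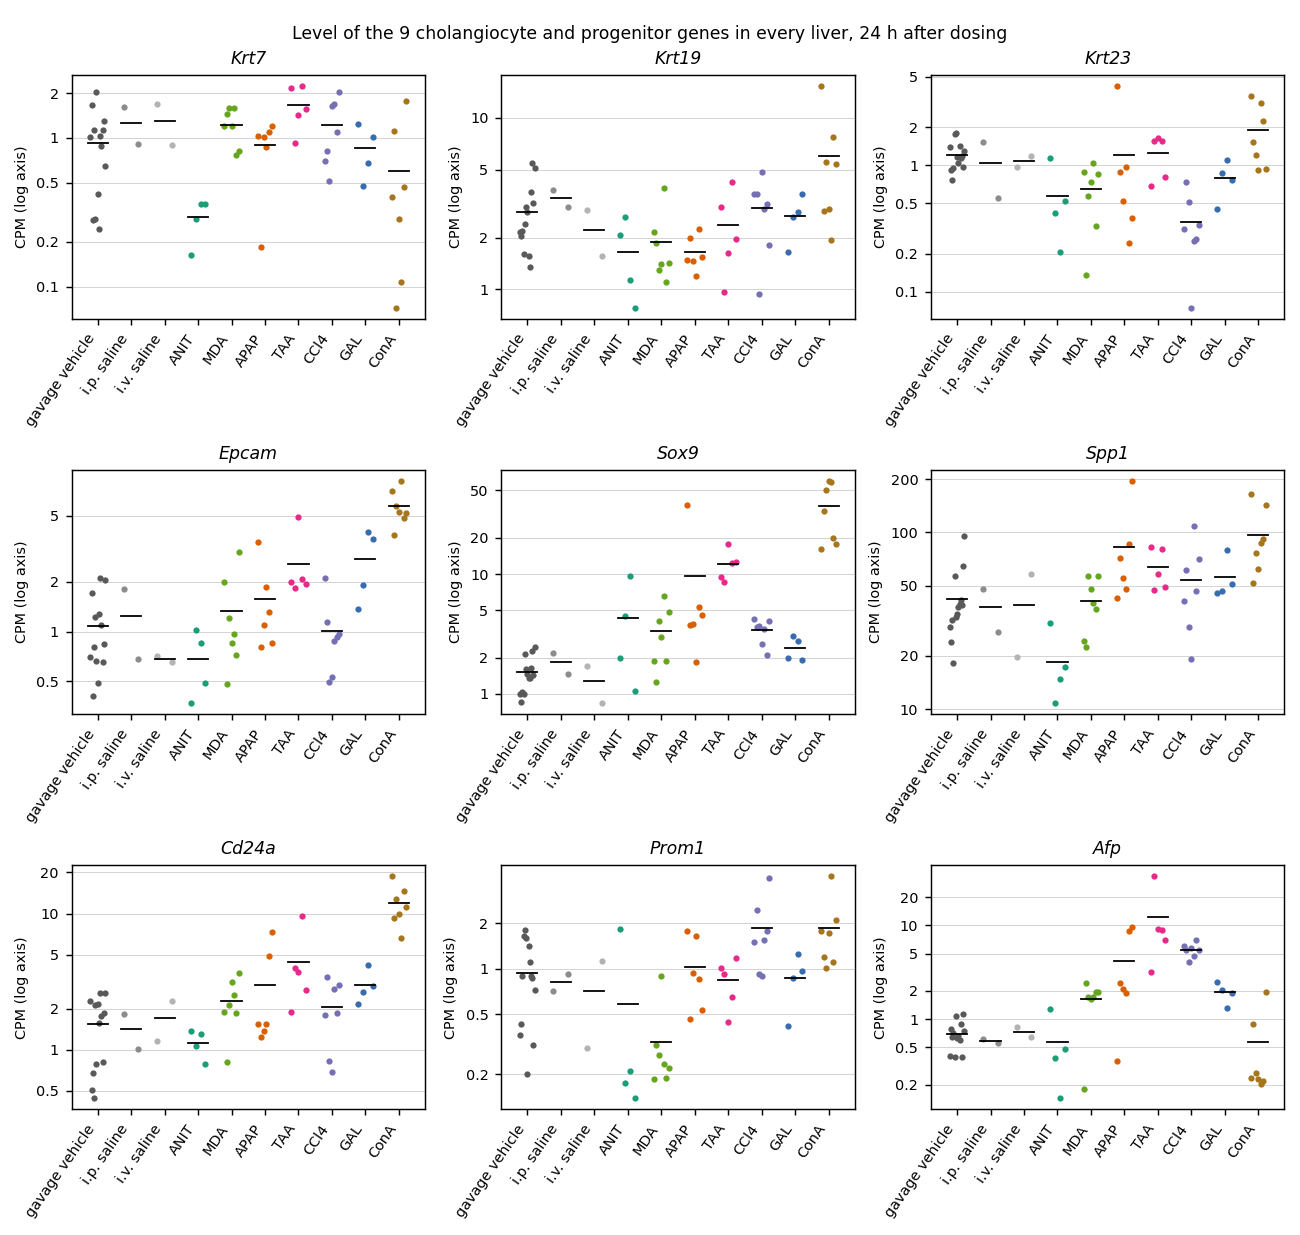
Each point is the level of 1 gene in 1 liver, in CPM on a log axis, by group; the black bar is the group mean. ConA livers lie above every vehicle liver in Epcam, Sox9 and Cd24a, TAA livers in Sox9 and Afp, and CCl4 and GAL livers in Afp. Against all vehicle livers, 34.3%, 25.2%, 26.2% and 25.1% of all genes were called higher under ConA, TAA, CCl4 and GAL. The share of all genes without overlap was not counted.

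The 9 genes did not move together. Against the vehicle of the same route, 4 of the 9 genes were called under ANIT (edgeR, adjusted p under 0.05), 1 higher and 3 lower, where 28.2% of all genes tested were called, 14% higher and 14.2% lower. Under MDA 4 were called, 2 higher and 2 lower (all genes 33.8%, with 17.4% higher and 16.4% lower). APAP raised 3 (31.8% of all genes called, 17.3% higher) and TAA raised 4 (50.5%, with 26.4% higher). CCl4 raised 1 of the 9 (33.5%, with 18% higher), GAL raised 1 (28.5%, with 12.8% higher) and ConA raised 3 (34.2%, with 16.8% higher). The share of members called was above that of all genes under ANIT and MDA, and close to or below it under the other 5 compounds. Counting higher calls alone, the share of members was above that of all genes under MDA, APAP, TAA and ConA. Sox9 rose under 5 compounds and Afp under 5, but the sets differed: ANIT and ConA raised Sox9 and not Afp, CCl4 and GAL raised Afp, and MDA, APAP and TAA raised both. Sox9 missed the threshold under CCl4 and GAL against the 2 intraperitoneal controls (0.88 and 0.37 on the log2 scale). It passed against all 17 vehicle livers (1.13 and 0.65), of which 13 were dosed by gavage.

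**Figure D2:**
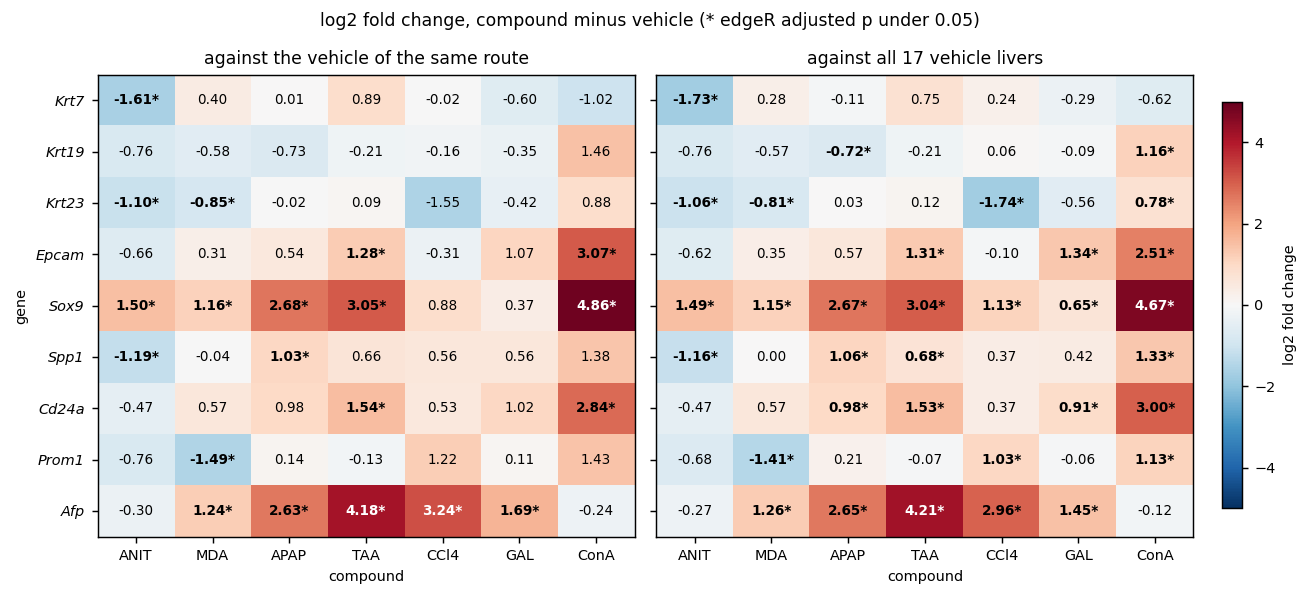
Fold change of each gene (rows) under each compound (columns) on the log2 scale, compound minus vehicle, against the vehicle of the same route (left) and against all 17 vehicle livers (right). Asterisks mark an edgeR adjusted p under 0.05; Sox9 is positive in every column, Afp is positive except under ANIT and ConA, and negative calls stand under ANIT and MDA in the left panel.

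The keratins are the structural genes of the duct epithelium, and ANIT lowered Krt7 and Krt23 whereas MDA lowered Krt23. Krt7 was 0.163, 0.285, 0.360 and 0.362 CPM in the 4 ANIT livers, against a range of 0.245 to 2.04 and a median of 1.02 in the 13 gavage vehicle livers. Of the ANIT values, 3 stood in the lower part of the control range and 1 lay beneath it. The log2 fold change was -1.61 ± 0.55 (SE; adjusted p = 0.0377), and the call was lost when any 1 of the 4 ANIT mice, or control mouse 8, was left out (adjusted p up to 0.1). It was also lost with no low-count filter (adjusted p = 0.0632) and by limma (adjusted p = 0.0685). Under MDA Krt7 ranged from 0.762 to 1.59 CPM with a median of 1.20, within the control range, and its fold change of 0.40 ± 0.36 was not called (adjusted p = 0.411).

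Krt23, a type I keratin of ducts and of stressed liver, measured 1.15, 0.422, 0.205 and 0.526 CPM under ANIT and 0.136 to 1.04 CPM (median 0.743) under MDA, against 0.762 to 1.80 CPM (median 1.16) in the controls. In all, 3 of 4 ANIT livers and 4 of 7 MDA livers lay beneath all 13 controls. Low Krt23 was not particular to these compounds: its mean was 0.355 CPM under CCl4, against 0.575 under ANIT and 0.651 under MDA. The CCl4 fall was called against all 17 vehicle livers (-1.74, adjusted p = 7.28e-06) and not against its route vehicle (-1.55). Against the gavage vehicle the log2 fold changes were -1.1 ± 0.35 (adjusted p = 0.0249) for ANIT and -0.85 ± 0.26 (adjusted p = 0.0158) for MDA. The ANIT call was lost without ANIT mouse 2, 3 or 4 (adjusted p 0.0644 to 0.0988), and with no low-count filter (adjusted p = 0.0542). The MDA call was lost with scaling to the library total (-0.84, adjusted p = 0.0537) and with a replicate block (-1.02, adjusted p = 0.0663; against all 17 vehicle livers -0.88, adjusted p = 0.0612). Krt19, the standard keratin of bile ducts, was 0.780 to 2.63 CPM under ANIT and 1.10 to 3.91 CPM under MDA, against 1.35 to 5.45 CPM. Its fold changes of -0.76 ± 0.38 (adjusted p = 0.146) and -0.58 ± 0.30 (adjusted p = 0.14) were not called. Without MDA mouse 7, the highest of its group, the MDA value became -0.89 and passed (adjusted p = 0.0209).

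Of the surface proteins, Prom1 (prominin-1, CD133), a membrane protein of progenitor cells and of the apical side of epithelia, was low under MDA. It was 0.185 to 0.890 CPM in the 7 MDA livers with a median of 0.232, against 0.199 to 1.80 CPM and a median of 0.892 in the controls. The groups overlapped, with 2 MDA livers beneath every control, and the fold change was -1.49 ± 0.44 (adjusted p = 0.0119). Under ANIT it was 0.174, 0.209 and 0.138 CPM in mice 2, 3 and 4 and 1.83 CPM in mouse 1. The fold change of -0.76 ± 0.66 was not called (adjusted p = 0.425), and without mouse 1 it was -2.47 (adjusted p = 0.011). Epcam and Cd24a, a small glycosylated surface protein, were called under neither compound: the log2 fold changes were -0.66 ± 0.43 and -0.47 ± 0.44 under ANIT, and 0.31 ± 0.35 and 0.57 ± 0.34 under MDA.

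Sox9, the transcription factor of the duct lineage, went the other way. It was 2.00, 4.50, 9.54 and 1.06 CPM in ANIT mice 1 to 4 and 1.26 to 6.54 CPM (median 2.97) under MDA, against 0.861 to 2.46 CPM (median 1.43) in the controls. Among them 2 of 4 ANIT livers and 4 of 7 MDA livers exceeded every control. The fold changes were 1.5 ± 0.37 (adjusted p = 0.00571) and 1.16 ± 0.27 (adjusted p = 0.00229), and the ANIT value fell to 0.75 without mouse 3 (adjusted p = 0.157). Spp1 was 30.8, 10.8, 14.8 and 17.2 CPM under ANIT, with 3 of 4 livers beneath the control range of 18.2 to 95.1 CPM. Its fold change was -1.19 ± 0.36 (adjusted p = 0.021) and lost its call without ANIT mouse 2, 3 or 4. Under MDA Spp1 was 22.4 to 56.7 CPM and did not pass (-0.04 ± 0.26, 95% interval -0.55 to 0.48). Over the 9 members the median log2 fold change was -0.76 under ANIT and 0.31 under MDA, against -0.01 and 0.03 over all genes tested. B cell markers were low with both compounds: their sum was 1.20 to 3.57 CPM under ANIT and 0.860 to 2.65 CPM under MDA, beneath every vehicle liver (4.66 to 11.2 CPM). Of the genes tested, 3 of 4 were lower under ANIT and 3 of 3 under MDA, where 14.2% and 16.4% of all genes were. Their part in the members' levels was not tested.

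The ANIT mice are numbered 1 to 4, so gavage controls with these numbers were compared with the other 9. This split was chosen after the data were seen. Sox9 averaged 0.972 ± 0.0752 CPM (SD, n = 4) in controls 1 to 4 and 1.75 ± 0.429 CPM (n = 9) in those above 4. Spp1 averaged 25.8 ± 6.07 and 49.1 ± 20.2 CPM. In both genes the ranges did not overlap, and the share of all genes without overlap was not counted. None of the 9 members was called between these controls (edgeR; 2 at an unadjusted p under 0.05, Sox9 and Spp1, with adjusted p of 0.075 and 0.123), where 2.33% of all genes were. The summed Kupffer cell markers were 151 to 187 CPM in controls 1 to 4 and 258 to 437 CPM in the others, and the summed macrophage markers 26.1 to 83.0 and 49.6 to 127 CPM. The 6 hepatocyte markers summed to 70545 to 99738 CPM in the former and 44287 to 68194 CPM in the latter. In ANIT livers the Kupffer cell sum was 165 to 242 CPM, between those ranges or within the lower one. Their part in the result was not tested. With the number range as a covariate, Sox9 under ANIT was 2.13 (adjusted p = 0.00522) and stayed called. Krt7 was -1.75 (adjusted p = 0.0699), Krt23 -0.84 (adjusted p = 0.162) and Spp1 -0.50 (adjusted p = 0.346), so none of the 3 lower genes kept its call. Among mice 1 to 4 alone, Sox9 was 2.11 (adjusted p = 0.0504) and Spp1 -0.51 (adjusted p = 0.325). For MDA the covariate changed no call against the gavage vehicle, and against all 17 vehicle livers it added Cd24a (0.82, adjusted p = 0.0429, from 0.57). Among mice 1 to 4 alone, MDA kept Sox9 (1.38, adjusted p = 0.0455) and lost Krt23 (-0.75, adjusted p = 0.32) and Afp (1.16, adjusted p = 0.259), and Prom1 had too few counts to be tested. Among mice above 4 it kept Sox9 (1.35), Prom1 (-2.18) and Afp (1.38) and lost Krt23 (-0.78, adjusted p = 0.118).

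**Figure D3:**
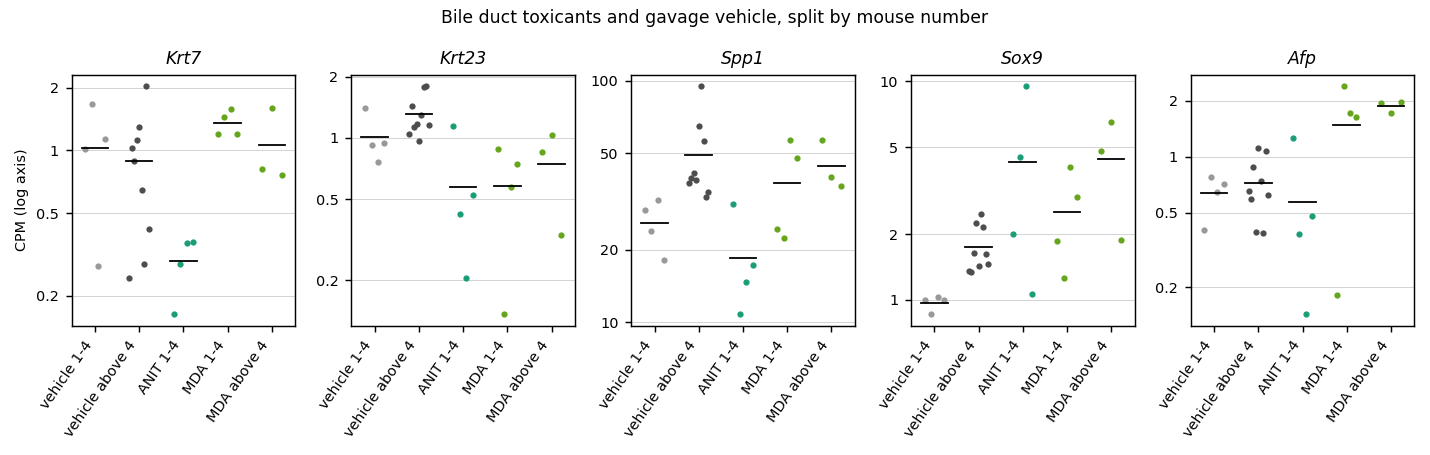
Level of 5 genes in CPM (log axes) in gavage vehicle, ANIT and MDA livers, split by whether the mouse number in the labels is 1 to 4 or above 4; points are livers and bars are means. Spp1 and Sox9 are lower in vehicle mice 1 to 4 than in the others, and the ANIT livers, all numbered 1 to 4, stand closer to the former in Spp1.

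Set against each other, ANIT and MDA could not be separated: 0 of 13360 genes were called by edgeR (1253 at an unadjusted p under 0.05; 78 called by DESeq2 and 0 by limma). Among the members tested, Krt7 had the smallest p (ANIT minus MDA -2.01 ± 0.38, adjusted p = 0.403), and DESeq2 called it (adjusted p = 0.0112). The approximate 95% interval of that difference, taken from the SE, ran from -2.75 to -1.26. The 4 ANIT values of Krt7 lay beneath all 7 MDA values. Afp differed by -1.54 ± 0.63 and Spp1 by -1.15 ± 0.33, neither called (adjusted p 0.501 and 0.438). Prom1 had too few counts to be tested in this pair.

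Sox9 had its highest mean level under ConA. The 7 ConA livers held 16.3 to 60.0 CPM with a median of 33.7, against 0.835 and 1.71 CPM in the 2 intravenous controls, and all 7 exceeded the highest of the 17 vehicle livers, 2.46 CPM. The log2 fold change was 4.86 ± 0.74 (adjusted p = 0.000888), and 4.67 against all vehicle livers. TAA livers held 9.49, 8.50, 17.7, 12.5 and 12.7 CPM and also stood clear of every vehicle liver (3.05 ± 0.21, adjusted p = 1.06e-09). The third highest mean, under APAP, came largely from 1 liver: mouse 1 held 38.0 CPM and the other 5 held 1.83 to 5.30 CPM. Still, 5 of the 6 exceeded every control. The fold change was 2.68 ± 0.45 (adjusted p = 0.000154), and 1.38 (adjusted p = 0.000274) without mouse 1. It was 4.01 (adjusted p = 0.0376) among mice 1 to 4 and 1.20 (adjusted p = 0.0114) among those above 4.

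With CCl4, Sox9 was 2.11 to 4.20 CPM (median 3.60) against 1.47 and 2.20 CPM in the intraperitoneal controls, and 6 of 7 livers exceeded both. Its fold change of 0.88 ± 0.31 just missed the threshold (adjusted p = 0.0557) and passed against all 17 vehicle livers (1.13 ± 0.19, adjusted p = 1.68e-05) or with scaling to the library total (1.29, adjusted p = 0.0153). GAL gave 1.99, 3.03, 2.77 and 1.93 CPM, which overlapped the controls (0.37 ± 0.35, adjusted p = 0.458; against all vehicle livers 0.65, adjusted p = 0.0286). That last call was lost without GAL mouse 4 or 7 (adjusted p 0.1 and 0.0773) and with no low-count filter (adjusted p = 0.0599). With the library total the value was 1.44 (adjusted p = 0.000131).

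Afp gave a different order of compounds. It was 3.21, 33.7, 9.15, 8.94 and 7.07 CPM under TAA, against 0.391 to 1.12 CPM (median 0.657) in the gavage controls, with no overlap. The log2 fold change was 4.18 ± 0.35 (adjusted p = 1.04e-08), and 3.38 without mouse 3, the liver at 33.7 CPM. The 7 CCl4 livers ranged from 4.09 to 7.06 CPM with a median of 5.46, against 0.561 and 0.610 CPM (3.24 ± 0.27, adjusted p = 3.18e-05). Under APAP it was 1.88 to 9.73 CPM in 5 livers, all above the controls, and 0.360 CPM in mouse 1, beneath all of them. The APAP fold change was 2.63 ± 0.42 (adjusted p = 9.17e-05), and 1.38 (adjusted p = 0.215) among mice numbered 1 to 4 alone.

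MDA raised Afp to 1.65 to 2.40 CPM in 6 of 7 livers, above every control, while mouse 1 was at 0.182 CPM, beneath them all. The fold change was 1.24 ± 0.30 (adjusted p = 0.00278). GAL gave 2.47, 2.04, 1.30 and 1.90 CPM, all above the 2 intraperitoneal controls and above all 17 vehicle livers (1.69 ± 0.39, adjusted p = 0.0224). This call was lost without either control or without GAL mouse 4 or 8 (adjusted p 0.0614 to 0.131), but against all 17 vehicle livers it was 1.45 (adjusted p = 1.18e-05). ANIT gave 1.27, 0.385, 0.143 and 0.479 CPM and ConA 0.201 to 1.93 CPM with a median of 0.236. Neither was called (-0.30 ± 0.42 and -0.24 ± 0.93), and the ConA median rests on 5 livers at 0.201 to 0.268 CPM, beneath all 17 vehicle livers, with mice 3 and 12 above that. Against all 17 vehicle livers ConA was -0.12, and without mouse 12 it was called lower (-0.90, adjusted p = 0.0155).

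**Figure D4:**
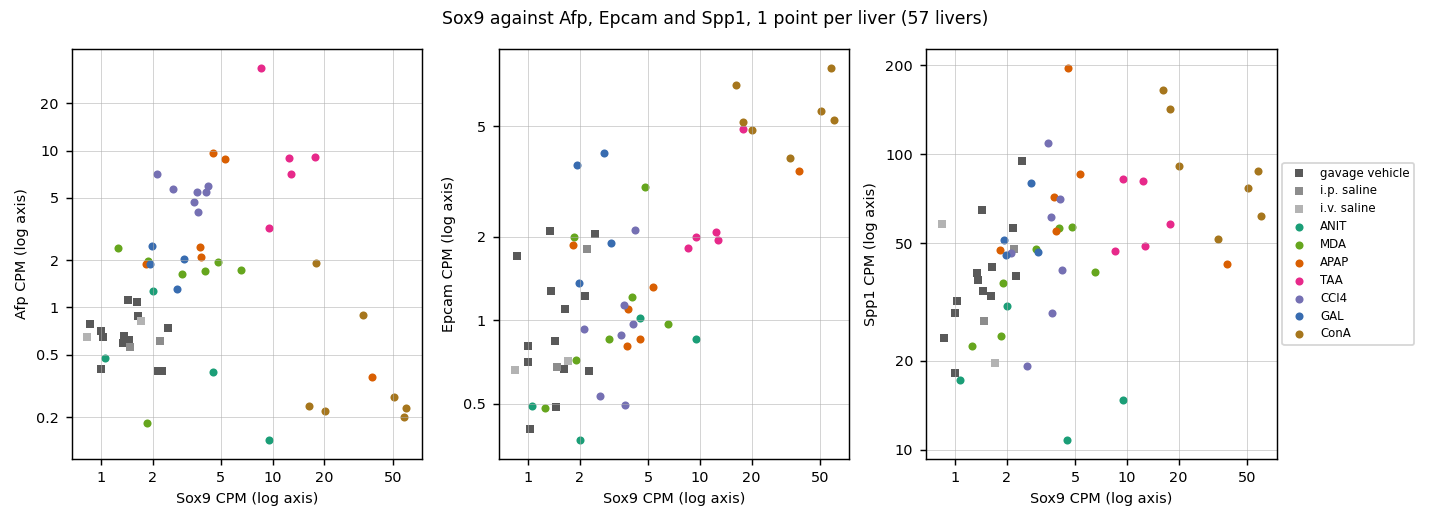
Sox9 (x axis) against Afp, Epcam and Spp1 (y axes) in CPM on log axes, 1 point per liver, squares for vehicle. All 7 ConA livers exceed every vehicle liver in Sox9 and 5 of them lie beneath every vehicle liver in Afp, CCl4 livers have Afp of 4.09 to 7.06 CPM with Sox9 of 2.11 to 4.20 CPM, and TAA livers are high in both.

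Spp1, the osteopontin gene, had the highest level of the 9. APAP livers held 42.7 to 196 CPM with a median of 63.4 against 18.2 to 95.1 CPM (median 37.7) in the controls. The ranges overlapped, with 1 liver above all controls. The fold change of 1.03 ± 0.32 was called (adjusted p = 0.0169), but not without mouse 11, the liver at 196 CPM (0.57, adjusted p = 0.145). With a replicate block the fold change was 1.31 and not called (adjusted p = 0.0703). Compared within mice 1 to 4 and within those above 4, it was 1.18 (adjusted p = 0.0383) and 1.20 (adjusted p = 0.0384). TAA livers held 46.9 to 82.8 CPM, inside the control range (0.66 ± 0.28, adjusted p = 0.0589). It passed in 7 of 10 alternatives, among them DESeq2 (adjusted p = 0.045), limma (adjusted p = 0.032), the number range as a covariate (0.80, adjusted p = 0.0149), a replicate block (0.84, adjusted p = 0.0294) and mice 1 to 4 alone (1.36, adjusted p = 0.0209). Among mice above 4 it was 0.39 (adjusted p = 0.306). Against all 17 vehicle livers it was 0.68 (adjusted p = 0.0405), lost without TAA mouse 1, 6 or 7. That call was also lost with the library total (0.61, adjusted p = 0.0962), no low-count filter (adjusted p = 0.0611) or a replicate block (0.85, adjusted p = 0.0608). ConA livers held 51.5 to 165 CPM against 19.7 and 58.1 CPM. The fold change of 1.38 ± 0.55 was not called against its 2 controls (adjusted p = 0.0759) and was called against all 17 (1.33 ± 0.25, adjusted p = 5.39e-05), and by DESeq2 against its 2 (adjusted p = 0.0161). CCl4 (0.56 ± 0.59) and GAL (0.56 ± 0.36) were not called against either control set with TMM scaling. With the library total, GAL passed against its route vehicle (1.29, adjusted p = 0.0359) and against all 17 (1.22, adjusted p = 0.00202, from 0.42), and CCl4 against all 17 (0.91, adjusted p = 0.0124, from 0.37). GAL also passed against all 17 with a replicate block (0.84, adjusted p = 0.0485).

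Macrophage markers were high in the livers of several compounds, and their part in the Spp1 level was not tested. All 7 genes of the lipid-associated and recruited macrophage list were higher under APAP, TAA and GAL, where 17.3%, 26.4% and 12.8% of all genes were, and 6 of 7 under CCl4 (all genes 18%). Their summed level was 159 to 484 CPM under APAP, 147 to 298 under TAA, 330 to 532 under CCl4, 160 to 252 under GAL and 103 to 294 under ConA (2 of 6 genes higher, all genes 16.8%), against 26.1 to 127 CPM in the vehicle livers. Under ANIT none of the 6 genes tested was called (all genes 14% higher and 14.2% lower), and the sum was 45.5 to 89.5 CPM. Under MDA 3 of 7 were higher (all genes 17.4%), with a sum of 39.4 to 155 CPM.

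Epcam and Cd24a both rose under ConA and TAA. Epcam, the adhesion molecule of duct and progenitor cells, was 3.85 to 8.12 CPM (median 5.27) in ConA livers against 0.659 and 0.713 CPM in the intravenous controls, and every liver exceeded all 17 vehicle livers (3.07 ± 0.38, adjusted p = 0.000292). Cd24a was 6.59 to 18.8 CPM (median 11.2) against 1.15 and 2.27 CPM, again without overlap (2.84 ± 0.48, adjusted p = 0.00163). In TAA livers Epcam was 2.00, 1.82, 4.91, 2.09 and 1.95 CPM, of which 1 exceeded all gavage controls (1.28 ± 0.34, adjusted p = 0.00358). Cd24a was 1.89, 3.95, 3.73, 9.60 and 2.77 CPM, of which 4 did (1.54 ± 0.39, adjusted p = 0.00281). Among mice 1 to 4 alone neither TAA call held (Epcam 1.07, adjusted p = 0.221; Cd24a 1.63, adjusted p = 0.148), and the Cd24a call was also lost with a replicate block (1.63, adjusted p = 0.0503).

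GAL livers held 2.16 to 4.22 CPM of Cd24a, all above both controls (1.84 and 1.01 CPM), and 1.36 to 4.00 CPM of Epcam. Neither was called there (adjusted p 0.116 and 0.232; Cd24a 1.74, adjusted p = 0.0202, with the library total), and both were against all 17 vehicle livers (Cd24a 0.91, adjusted p = 0.0362; Epcam 1.34, adjusted p = 0.00254). The Cd24a call was lost without GAL mouse 7 or 8. Prom1 was called in no compound but MDA against the route vehicles. Against all 17 it was higher under CCl4 (1.03, adjusted p = 0.014) and ConA (1.13, adjusted p = 0.00607). The CCl4 call was lost without mouse 12 and with a replicate block (0.72, adjusted p = 0.398). The ConA call was lost without mouse 8, with the block (1.08, adjusted p = 0.0824) and with the library total (0.57, adjusted p = 0.184).

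Blood cell markers were high in the same ConA and TAA livers as Cd24a. The summed neutrophil markers were 127 to 289 CPM under ConA and 160 to 825 CPM under TAA, against 2.11 to 62.0 CPM in the vehicle livers. Ly6g, a defining neutrophil gene, was at 0 in all 17 vehicle livers and was detected in all 5 TAA livers (mean 0.746 CPM) and in 6 of 7 ConA livers (mean 0.646 CPM). The red cell sums were 934 to 5329 CPM under ConA and 2103 to 3841 CPM under TAA, against 83.6 to 284 CPM, and rested on the globin genes Hba-a1 and Hbb-bs. Alas2, the heme synthesis gene of red cell precursors, fell under TAA (-0.72, adjusted p = 0.00473). Of the B cell list, 4 of 4 genes tested were higher under TAA, where 26.4% of all genes were. The part of blood cells in the Cd24a level was not tested.

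**Figure D5:**
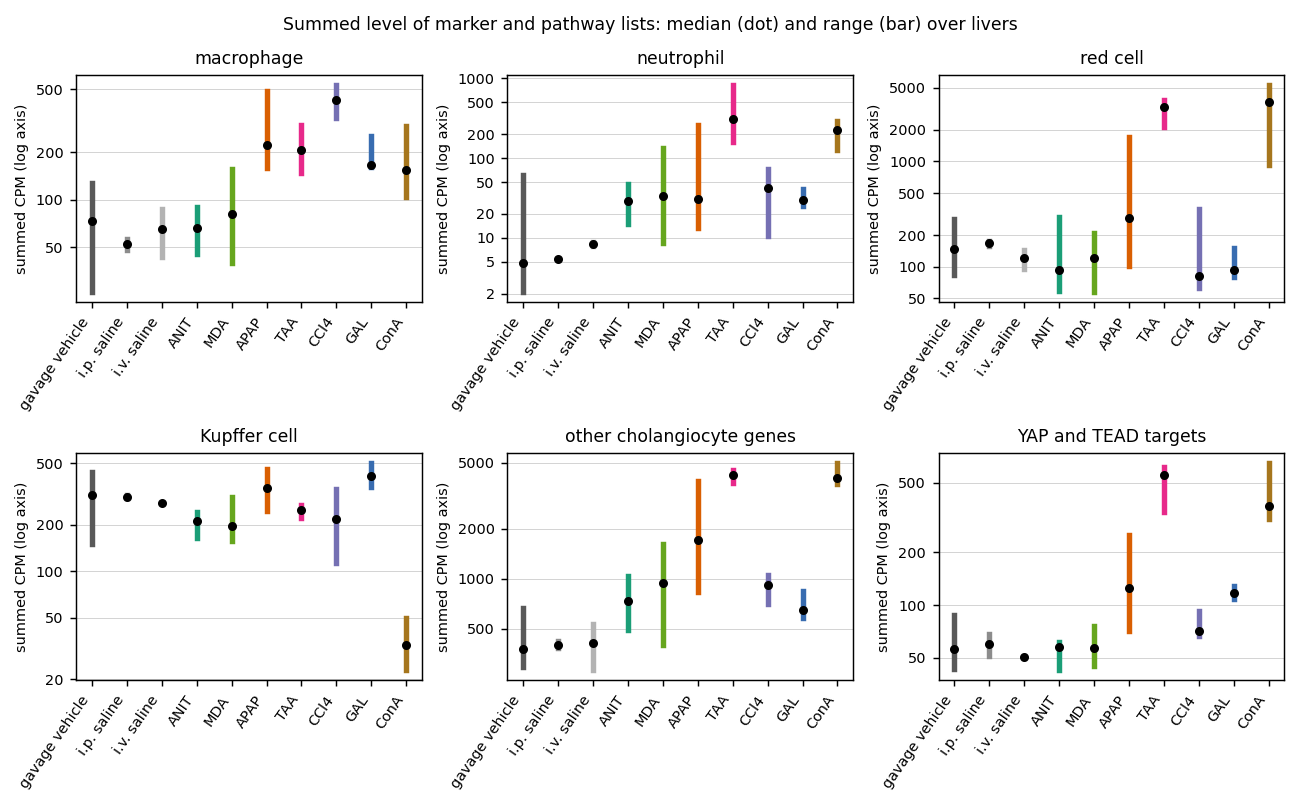
Summed CPM (log axes) of 4 cell-type marker lists, of 15 other cholangiocyte genes and of 7 YAP and TEAD target genes; dots are medians and bars run from the lowest to the highest liver of each group. Neutrophil, red cell, cholangiocyte and YAP sums are highest under TAA and ConA, and the Kupffer cell sum is lowest under ConA.

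Compared with all 17 vehicle livers, ConA raised 7 of the 9 members (68% of all genes called, 34.3% higher), adding Krt19, Krt23, Spp1 and Prom1 to the 3 named above. Krt19 was 1.95 to 15.4 CPM (1.16 ± 0.31, adjusted p = 0.00157; 0.72, adjusted p = 0.0281, without mouse 2, the highest), Krt23 was 0.910 to 3.52 CPM (0.78 ± 0.24, adjusted p = 0.00647), and both overlapped the vehicle range. Here the scaling matters: with the library total in place of TMM the median of all genes moved by -0.62, and 4 members stayed called, without Krt19 (0.41), Krt23 (0.09) and Prom1 (0.57). CCl4 gave 4 calls, 3 higher and 1 lower (53.4% of all genes, with 26.2% higher and 27.2% lower). The lower one was Krt23: 0.0747 to 0.736 CPM, 6 of 7 livers beneath every vehicle liver (-1.74, adjusted p = 7.28e-06). GAL raised 4 (52.5% of all genes called, 25.1% higher) and TAA raised 5, adding Spp1 (49.7%, with 25.2% higher). APAP gave 4 higher and 1 lower, adding Cd24a (0.98, adjusted p = 0.049) and Krt19 (-0.72, adjusted p = 0.0382), where 33.4% of all genes were called, 18.1% higher and 15.3% lower. Cd24a was 0.48 (adjusted p = 0.379) without APAP mouse 11 and was also lost without mouse 8. Krt19 was lost without mouse 1, 4, 6 or 11 and under 5 of 6 alternatives, to -0.17 with a replicate block. ANIT (28%, with 13.5% higher and 14.5% lower) and MDA (34.2%, with 17.2% higher and 17.1% lower) gave the same 4 genes each as against the gavage vehicle alone.

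Compounds of one route were also compared directly, which uses no vehicle liver. ANIT lay beneath TAA in 5 of the 9 members (26.2% of all genes called, 15.1% lower): Afp (-4.49 ± 0.82, adjusted p = 0.00356), Krt7 (-2.48 ± 0.43), Cd24a (-2.0 ± 0.47), Epcam (-1.93 ± 0.45) and Spp1 (-1.84 ± 0.33). Sox9 just missed the threshold (-1.55, adjusted p = 0.0543). It passed with the library total (-1.80, adjusted p = 0.0399), DESeq2 (adjusted p = 0.0122), limma (adjusted p = 0.0167), the 5 CPM minimum (adjusted p = 0.0489) and without ANIT mouse 3 (-2.28, adjusted p = 0.0102), but not with a replicate block (-1.03, adjusted p = 0.558) or no low-count filter (adjusted p = 0.0935). MDA lay beneath TAA in 3 (30%, with 15.8% lower): Afp (-2.94 ± 0.55, adjusted p = 0.00127), Sox9 (-1.88 ± 0.36, adjusted p = 0.00152) and Prom1 (-1.35 ± 0.44, adjusted p = 0.034, lost in 9 of 12 leave-outs). Against APAP, ANIT was lower in Spp1 (-2.25 ± 0.50, adjusted p = 0.0321; 5.98% of all genes called, 2.35% higher and 3.63% lower), a call lost without ANIT mouse 2, 3 or 4 or APAP mouse 8. MDA was lower than APAP in Prom1 (-1.63 ± 0.46, adjusted p = 0.0399; 9.43% of all genes, 5.38% lower), a call lost in 10 of 13 leave-outs. APAP and TAA differed in none of the 9 (2.62% of all genes), with intervals as wide as -2.99 to -0.07 for Afp. Without APAP mouse 1, Sox9 was lower under APAP (-1.65, adjusted p = 0.00557, from -0.38). CCl4 exceeded GAL in Afp (1.45 ± 0.20, adjusted p = 0.000172; 42.5% of all genes, 22.2% higher and 20.3% lower) and lay beneath it in Epcam (-1.50 ± 0.40, adjusted p = 0.011) and Krt23 (-1.24 ± 0.45, adjusted p = 0.0432). The Krt23 call was lost in 7 of 11 leave-outs (adjusted p up to 0.145) and with no low-count filter (adjusted p = 0.0867), and the Epcam call without GAL mouse 7 (-1.23, adjusted p = 0.0503).

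Among 15 other cholangiocyte genes, 11 were tested under ANIT, of which 2 were higher and 2 lower. These shares are near those of all genes (14% higher and 14.2% lower). The list had a median log2 fold change of -0.39 against -0.01 over all genes; Pkhd1, the fibrocystin gene of the duct cilium, was among the lower ones (-1.38, adjusted p = 0.00113). MDA gave 3 higher and 1 lower of 11 (all genes 17.4% and 16.4%; list median 0.02), again with Pkhd1 lower (-0.67, adjusted p = 0.00951), and raised Slc10a2, the apical bile acid transporter (1.75, adjusted p = 0.000165). The simple-epithelium keratins Krt8 and Krt18, which hepatocytes also make, carried most of the list's level: Krt18 rose under every compound and Krt8 under every compound but ANIT. Krt8 averaged 2145 ± 277 CPM under TAA (n = 5) and 1996 ± 188 CPM under ConA (n = 7), against 196 ± 70.7 CPM in the gavage and 196 ± 110 CPM in the intravenous controls. ConA also raised Cldn7, a tight junction gene (3.24, adjusted p = 0.00586), and Ehf, an epithelial transcription factor (2.87, adjusted p = 0.00865), giving 4 higher and 0 lower of 12 (all genes 16.8% and 17.3%; list median 0.12). TAA gave 5 higher and 2 lower of 11 (all genes 26.4% and 24%; list median 0.21) and lowered Pkhd1 (-0.98). Sctr and Cftr had too few counts to be tested under any compound.

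Among 11 other fetal and progenitor genes, 2 moved under nearly every compound. Tnfrsf12a, the TWEAK receptor of progenitor cells, rose under all 7, from 2.79 under ANIT to 5.46 under TAA on the log2 scale, and reached 408 ± 43.6 CPM (n = 5) under TAA against 9.61 ± 4.25 CPM. Lgr5, a Wnt target of hepatocytes at the central vein, fell under 6, from -1.84 under CCl4 to -3.86 under APAP, and was not called under GAL. Sox4, a relative of Sox9 in duct development, fell under ANIT (-1.07) and MDA (-0.71) and rose under ConA (2.22) and TAA (1.41). Gpc3, a fetal and tumour glypican, rose under APAP (2.65, adjusted p = 0.00011). In all, APAP and TAA each raised 4 and lowered 1 of the 7 tested (medians 0.76 and 0.98, against 0.07 and 0.03 over all genes, of which 17.3% and 26.4% were higher and 14.6% and 24% lower), and Dlk1, Lin28b and Ncam1 were not testable.

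The 7 regulators of the Afp promoter gave no higher call under any compound. All 7 were tested, and 5 were lower under TAA, 4 under APAP, 3 under MDA, 2 each under ANIT, GAL and ConA, and 1 under CCl4; the shares of all genes called lower were 24%, 14.6%, 16.4%, 14.2%, 15.7%, 17.3% and 15.6%. Cebpa, an activator of Afp, fell under all compounds but ConA, from -0.69 under APAP to -1.92 under CCl4. Zhx2, the postnatal repressor of Afp, was lower under APAP (-1.11), GAL (-1.21) and MDA (-1.05). Under TAA it was -1.48 (adjusted p = 0.0112), a value named after it was seen because 4 others had smaller p-values. It was not called under ANIT, CCl4 or ConA. Foxa1, a pioneer factor of liver genes, was lower under ANIT (-0.64), MDA (-0.43), TAA (-0.63) and ConA (-1.78).

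Notch signals set duct fate in the developing liver. Hes1, the standard Notch target, rose under ANIT (1.51), APAP (1.25), MDA (0.80), TAA (2.48) and ConA (1.99) and was not called under CCl4 or GAL against the route vehicle. It was not called under these 2 against all 17 vehicle livers either (0.44, adjusted p = 0.0753, and 0.14, adjusted p = 0.702), where Sox9 was. The ligand gene Jag1 rose under APAP (1.69) and TAA (1.02), and Heyl, another target, fell under ANIT (-2.52), MDA (-2.08) and CCl4 (-1.17). The share of all genes called higher, to set beside the counts that follow, was 14% under ANIT, 17.4% under MDA, 17.3% under APAP, 26.4% under TAA, 18% under CCl4, 12.8% under GAL and 16.8% under ConA, and the share called lower 14.2%, 16.4%, 14.6%, 24%, 15.6%, 15.7% and 17.3%. Of the 7 Notch genes tested, 4 rose under APAP (median 0.58) and 4 rose and 1 fell under TAA (0.87), whereas 1 rose and 1 fell under ANIT (-0.01) and MDA (-0.14), 1 rose under ConA (0.27) and 3 fell under CCl4 (0.25). None of 8 tested was called under GAL (0.49). The counts under ANIT, MDA and ConA are near the shares of all genes.

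YAP and TEAD, the effectors of Hippo signalling, drive duct-like states in hepatocytes. All 7 of their listed targets rose under TAA (median 1.88), 4 of 6 under APAP (0.94), 4 of 7 under GAL (1.61), and 2 of 7 under ConA (1.23). CCl4 raised 4 and lowered 1 of 7 (1.57), ANIT raised 1 and lowered 1 of 6 (0.16), and MDA raised 2 and lowered 1 of 6 (0.29). The medians over all genes lay between -0.01 and 0.10. Ccn1, a secreted matrix protein and a standard target, rose by 5.77 under ConA and 4.96 under TAA and fell by 1.09 under ANIT, where its relative Ccn2 rose by 1.24.

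Receptors of osteopontin, the product of Spp1, were higher with APAP (5 of 6, median 1.02) and TAA (6 of 7, 1 lower, median 1.10). GAL raised 3 of 7 (0.79), CCl4 2 of 7 (0.40), MDA 2 of 6 with 1 lower (0.21), and ANIT and ConA 1 of 6 each with 1 lower (-0.18 and 0.77). The last 2 counts are near the shares of all genes called. Itgb3, the integrin beta 3 chain, rose under TAA (2.44), APAP (1.91), ANIT (1.79) and MDA (1.44). Itgav, the alpha V chain that pairs with it, rose under APAP, TAA, CCl4, GAL and ConA, by 1.29 to 1.81.

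Markers of other cells moved as well, and their part in the levels of the 9 genes was not tested. Hepatocyte genes were lower in 6 of 6 under CCl4 (median -1.08) and in 5 of 6 under GAL (-1.51), and under the other compounds in 1 to 4 of 6. Kupffer cell genes were lower in 5 of 5 under ConA (-2.95), with a summed level of 23.0 to 50.3 CPM against 151 to 437 CPM. Stellate cell genes were lower in 5 of 6 under MDA (-1.07), 3 of 6 under ConA and 2 of 6 under ANIT and CCl4, and higher in 3 of 6 under APAP. Mesothelial genes, which share keratins with ducts, summed to at most 11.5 CPM in any liver and were called in 1 of 2 tested under ANIT and MDA (lower) and in none under the other compounds.

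Over the 57 livers, the genes most like each member (Pearson's r of log2(CPM + 1) among the 12371 genes averaging 1 CPM or more) were found as a description, since the livers share treatments and libraries differ in depth. Sox9 was followed most closely by Plscr1 (r = 0.95), Cblb (0.94) and Fosl2 (0.94). Afp was followed by Tpm1 (0.87) and Zfp697 (0.85), Cd24a by AA467197 (0.87), Fmnl2 and Mmp7 (both 0.86), and Epcam by Snx18 (0.83), Sav1 and Nfkb1 (both 0.82). Spp1 came with Slc25a4, Vim and Fxyd5 (all 0.75), Krt23 with Fzd8 (0.72), Rdh10 (0.69) and Igfbp3 (0.66), and Prom1 with Spred2 (0.63), Kctd6 (0.59) and Sntb2 (0.58). Krt19 came with Sftpd (0.63), Cldn7 (0.59) and Ptgis (0.59), and Krt7 had no close follower (Tcf7, 0.47; Gstcd, 0.46; Hmgn1, 0.44). No member was among the 3 genes most like another, but Krt7 averaged just under 1 CPM and so could not be picked.

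Ranked by mean level, ConA came first of the 10 groups in Krt19, Krt23, Epcam, Sox9, Spp1 and Cd24a, TAA in Krt7 and Afp, and CCl4 in Prom1. ANIT came last in Krt7, Krt19, Epcam, Spp1 and Cd24a, MDA in Prom1, CCl4 in Krt23, ConA in Afp and the intravenous controls in Sox9. For Sox9 the order was ConA, TAA, APAP, ANIT, CCl4, MDA, GAL and then the 3 vehicles. For Afp it was TAA, CCl4, APAP, GAL, MDA, the 3 vehicles, ANIT and ConA. No 2 neighbours in any of the 9 orders were free of overlap between their livers.

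Without any toxicant, in the 13 gavage vehicle livers, few pairs of the 9 genes passed a test of correlation. Of 36 pairs, 0 passed an adjusted p of 0.05 by Pearson's r of log2(CPM + 1), and 2 did by Spearman's rho in a permutation test; at an unadjusted p under 0.05 there were 4 by Pearson's r. With scaling to the library total 2 and 4 pairs passed. Sox9 and Spp1 had r = 0.77 (adjusted p = 0.0659) and rho = 0.78 (adjusted p = 0.0434), and r = 0.74 without the 2 livers farthest from the Sox9 median. Krt19 and Sox9 had r = 0.74 (adjusted p = 0.0796) and rho = 0.79 (adjusted p = 0.0434), but r fell to 0.45 without the 2 livers farthest from the Krt19 median. Spp1 and Cd24a had r = 0.68 (permutation p = 0.00907, adjusted p = 0.109), and Krt19 and Spp1 r = 0.57 (permutation p = 0.0411, adjusted p = 0.37). Among the 9 mice numbered above 4, none of the 36 pairs passed in a permutation test after adjustment. Krt19 and Sox9 there had r = 0.73 and rho = 0.77 (permutation p = 0.0296 and 0.0214, adjusted p = 0.683 and 0.771), and Sox9 and Spp1 r = 0.55 and rho = 0.35 (permutation p = 0.116 and 0.357).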

How the data were processed

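Messenger RNA of 57 perfused livers (outer left lateral lobe) was sequenced from stranded libraries, per the labels' protocols. The authors deposited 1 table of estimated counts for 54307 genes; the submitters' processing notes name Salmon 1.6.0, R 4.1.3 and GRCm39 without their roles. Of the gene IDs, 51482 had a symbol in the reference table. Over 5285 genes with a single transcript, longer genes had a lower smallest value (rho = -0.93, rank correlation over genes), so the deposited estimated counts look length-corrected, which no label states.

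Estimated counts were rounded and tested with edgeR 4.0.16 in R 4.3.3 (quasi-likelihood test, TMM scaling, filterByExpr) on the groups of each comparison only. There were 21 comparisons: 7 with the route vehicle, 7 with all 17 vehicles and 7 between compounds of 1 route. P-values were adjusted over all genes tested (Benjamini-Hochberg), and a gene is called higher or lower when the adjusted p is under 0.05. Every adjusted p of a fold change is from edgeR unless limma 3.58.1 or DESeq2 1.42.0 is named; fold changes are log2, compound minus control, and ± after one is its SE. The 95% intervals are normal approximations from the SE, so with this few mice they are narrower than the edgeR test implies. Printed CPM use 1 TMM scaling over all 57 libraries. Nothing in the labels says how mice were batched, and p-values measure the spread between these mice. The scripts were tested on simulated data. SciPy 1.17.1 gave the permutation tests (100000 resamples), with a pseudocount of 1 CPM.

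The 9 members and all lists were chosen with earlier results of these data known. All members were named in every comparison, and from each list up to 4 called genes with the smallest adjusted p per comparison. For each member the 3 genes most like it were named. A few items these rules would name are not reported here. Lists covered other cholangiocyte genes, other fetal and progenitor genes, Afp promoter regulators, Notch, YAP and TEAD targets, osteopontin receptors, and markers of hepatocytes, macrophages, Kupffer cells, neutrophils, B cells, red cell precursors, mesothelial and stellate cells. Alternatives changed the scaling, tool, low-value filter, controls and mice used. The split of gavage controls by mouse number was chosen after seeing the data. Mouse numbers were not used as pairs in the main tests: no comparison with 2 or more shared numbers had every same-numbered pair correlate above 0.1. A single low pair fails this check, so it cannot decide on pairing. The highest mean r was 0.137, for TAA and the gavage vehicle (0.00740 to 0.275).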

Additional observations from a re-analysis of the deposited data

Results flagged for a closer look

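Within 16 of the 63 combinations of a member and a compound group of 4 to 7 mice, 1 liver stood apart from the rest by Dixon's criterion. Chance meets it in about 1 of 20 combinations if levels are normally distributed. It was applied to CPM, which need not be, so the 16 cannot be set against that rate. Sox9 in APAP mouse 1 was 38.0 CPM, and Krt23 in the same liver was 4.26 CPM. In APAP mouse 11 Spp1 was 196 CPM, and in APAP mouse 2 Krt7 was low at 0.186 CPM. Among the TAA livers, mouse 3 stood apart in Afp (33.7 CPM), mouse 6 in Epcam (4.91 CPM) and mouse 7 in Cd24a (9.60 CPM). Among the MDA livers, mouse 1 stood apart in Afp (0.182 CPM, low), mouse 4 in Prom1 (0.890 CPM) and mouse 7 in Krt19 (3.91 CPM). In ConA livers, Krt19 of mouse 2 (15.4 CPM), Prom1 of mouse 8 (4.13 CPM) and Afp of mouse 12 (1.93 CPM) did so. The others were Prom1 in ANIT mouse 1 (1.83 CPM), Epcam in CCl4 mouse 1 (2.12 CPM) and Spp1 in GAL mouse 7 (79.8 CPM).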

How the results depend on the processing

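The number of the 9 members called was recomputed under each alternative. Against the route vehicle, ANIT gave 4, but 2 with no low-count filter, 1 with a 5 CPM minimum, 1 with the number range as a covariate, 0 with a replicate block and 0 among mice 1 to 4; without single mice it was 0 to 4. APAP gave 3, but 1 with the 5 CPM minimum, 0 with the block, 5 in mice above 4 and 5 against all vehicles (2 to 4 without single mice). MDA gave 4, but 0 with the 5 CPM minimum and 1 in mice 1 to 4 (4 to 5). TAA gave 4, but 1 with the 5 CPM minimum (4 to 5). CCl4 gave 1, but 2 with the library total and 4 against all vehicles (1 to 2). GAL gave 1, but 3 with the library total, 0 without a filter, with the 5 CPM minimum, with the block or in mice above 4, and 4 against all vehicles (0 to 1). ConA gave 3, but 7 against all vehicles (3 to 4).

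Against all vehicles, ANIT gave 4 (5 CPM minimum 1, block 0, range covariate 1; 1 to 4 without single mice), APAP 5 (limma 3, no filter 3, minimum 1, block 3; 2 to 5), MDA 4 (minimum 0; 4 to 5), TAA 5 (minimum 1; 4 to 5), CCl4 4 (minimum 0; 3 to 4), GAL 4 (no filter 2, minimum 0; 2 to 4) and ConA 7 (library total 4, minimum 2; 6 to 9). Between compounds, ANIT and MDA gave 0 (DESeq2 1; 0 throughout without single mice), ANIT and APAP 1 (library total 3, DESeq2 3, no filter 0, block 0; 0 to 2), ANIT and TAA 5 (minimum 3, block 0; 5 to 7), MDA and APAP 1 (DESeq2 2, no filter 0, minimum 0, block 0; 0 to 1), MDA and TAA 3 (2 to 4), APAP and TAA 0 (0 to 1) and CCl4 and GAL 3 (minimum 1; 1 to 3). Library-total scaling called 2 of 36 vehicle correlations by Pearson's r in place of 0, and 4 by Spearman's rho in place of 2.

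One direction turned and was then called: Krt23 under APAP against all vehicles became -0.95 (adjusted p = 0.0129) without APAP mouse 1. Without each other mouse in turn it reached at most 0.25. Library-total scaling moved the median of all genes by -0.22 under ANIT, 0.16 under APAP, 0.43 under CCl4, 0.76 under GAL and -0.59 under ConA. The 5 CPM minimum removes members before testing, and the block drops mice whose number has no partner; the causes of the other changes were not tested. No block could be fitted for CCl4 or ConA against the route vehicle, or CCl4 against GAL, which share fewer than 2 numbers.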

Other observations

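Within the APAP group the members did not move in the same livers. Mice 8 and 11 had the highest Afp (8.82 and 9.73 CPM) and Cd24a (4.87 and 7.31 CPM), together with the highest neutrophil sums (196 and 263 CPM, against 13.3 to 41.6 CPM in the other 4) and red cell sums (1697 and 1021 CPM, against 101 to 347 CPM). Mouse 1 had the highest Sox9 (38.0 CPM) and Krt23 (4.26 CPM), the lowest Afp (0.360 CPM) and the highest summed level of the other cholangiocyte genes (3851 CPM), with a neutrophil sum of 41.6 CPM. Across the TAA livers, mouse 3 had the highest Afp (33.7 CPM) and the lowest Sox9 (8.50 CPM). These are values of single livers, with no test.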
